A study of Apostichopus japonicus with 12 samples.

Results

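Respiratory trees of the sea cucumber Apostichopus japonicus held at 26 °C were compared with control ones by RNA sequencing of ribosomal RNA-depleted RNA, with 3 thermal libraries set against 3 control libraries. The features compared were those with at least 0.5 FPKM (fragments scaled to the length of the feature and the size of the library) in at least 3 of these 6 libraries. They numbered 40555 of the 59494 features in the deposited table, 21248 with AJAP identifiers and 19307 with MSTRG identifiers, the default prefix of loci assembled by StringTie. A further 17165 features had reads in the 6 libraries but stayed under that minimum, and 1774 had none. The whole series holds 12 libraries in 4 groups of 3, the others being a hypoxic group (2 mg/L) and a group under both stresses (26 °C and 2 mg/L). The labels give the control no treatment beyond its name, and no temperature, oxygen level, exposure time, age, sex or number of animals is given for it. The thermal group has its temperature only. They do not say whether the replicates were separate or pooled animals, so p-values measure the spread between these libraries, which may be technical.

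The respiratory tree is a pair of branched tubes inside the body cavity through which the animal pumps sea water for gas exchange. In animals generally, heat unfolds proteins, and heat shock factor 1 then switches on genes for chaperones such as the heat shock proteins, while ubiquitin and the proteasome remove proteins that cannot be refolded. Apostichopus japonicus is known for summer aestivation, in which it stops feeding and lowers its metabolism in warm water. The table gives no gene names, and 0 of its identifiers matched the RefSeq gene table of this species (assembly ASM3797524v1), so features are given by identifier and no chaperone, stress or tissue marker gene could be followed. The tissue label could not be set against marker genes for the same reason. The tissue was sequenced whole, and fewer cells of a type and less RNA per cell cannot be told apart in it.

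Depth was similar on both sides. Reads recovered from the FPKM values numbered 20384391 to 23240088 in the control libraries and 21934259 to 28424597 in the thermal libraries. Across features, which are no independent replicates, Pearson correlations of the log2 values were 0.840 to 0.852 among the control libraries, 0.845 to 0.860 among the thermal libraries and 0.828 to 0.843 between the groups, so the last range overlaps the first. The median standard deviation of a feature over the 3 libraries was 0.52 in the control and 0.51 in the thermal group on the log2 scale. MSTRG features took 26.2% ± 3.27 of the reads in the control and 27.9% ± 2.59 in the thermal group (SD, n = 3 each), a difference within the spread (exact permutation p = 0.6, two-sided, where 3 against 3 libraries cannot give less than 0.1). Their share of the summed FPKM was 18.9% ± 2.23 in the control and 21.1% ± 1.45 in the thermal group, with no overlap between the groups (exact permutation p = 0.1, two-sided, the smallest possible for n = 3 each). The groups almost met, at 20.17% in control replicate 2 and 20.18% in thermal replicate 1. Control replicate 3 (16.3%) and thermal replicate 3 (22.8%) stood furthest apart.

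Changes with heat that passed the test were few and were spread over both kinds of identifier. The limma fit called 17 of the 40555 features at an adjusted p threshold of 0.05 (0.0419%), 9 of them higher in the thermal group (0.0222%) and 8 lower (0.0197%). The rises comprised 7 AJAP and 2 MSTRG features, and the falls 3 AJAP and 5 MSTRG features. At all 17 the 3 thermal libraries lay wholly above or wholly below the 3 control libraries, with a median absolute log2 change of 2.80. Over all 40555 features the thermal libraries lay wholly above at 3604 and wholly below at 2778. The 17 were called on these same values, so their lack of overlap is no further sign of a change. An unadjusted p under 0.05 was reached by 4468 features (11.0%), 2556 higher and 1912 lower, and their median absolute log2 change was 1.21. The calls were close to the threshold, with adjusted p from 0.0412 to 0.0491, and the next feature stood at 0.0651. They depended on the fit, which took its estimate of the spread from all 12 libraries. A fit on only the 6 thermal and control libraries called 0 features (3832 at an unadjusted p under 0.05, smallest adjusted p 0.211), and limma's voom on the recovered reads called 0 (4371 unadjusted, smallest adjusted p 0.119). The count was 7 without control replicate 1, 9 without thermal replicate 3, 2 without thermal replicate 1, 1 without combined replicate 3 (combined being the group under both stresses), and 0 on leaving out any of the other 8 libraries. Of these calls, in the same order, only 3, 4, 1 and 0 were among the 17, the rest being other features. Each of the 17 kept its direction in every fit that held it. With no overlap between the groups, only a rescaling of the libraries or voom could have changed it.

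**Figure D1:**
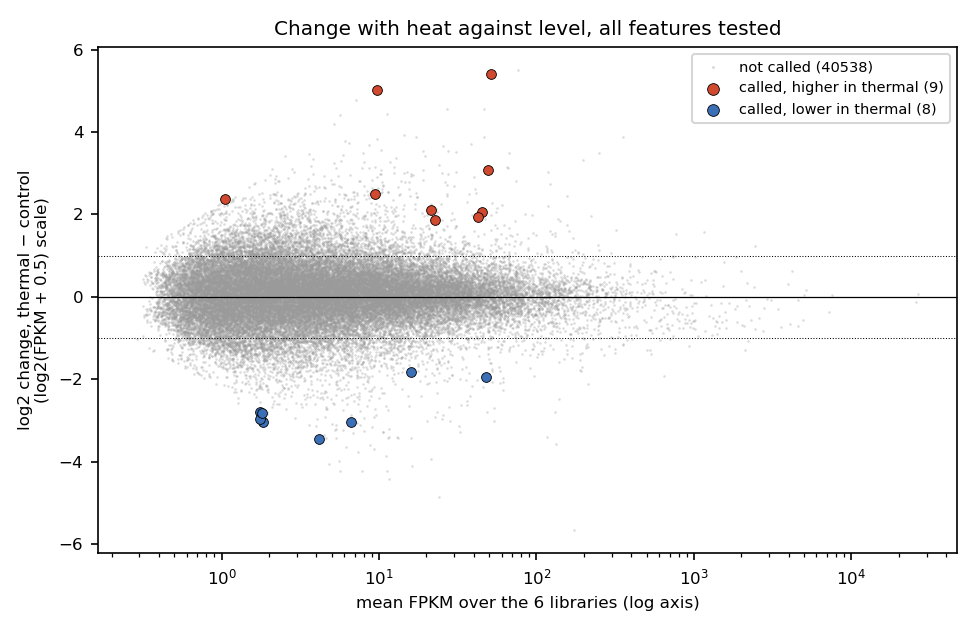
Log2 change (thermal minus control, on the log2(FPKM + 0.5) scale) against the mean FPKM over the 6 libraries on a log axis, 1 point per feature tested. The 9 features called higher (red) and the 8 called lower (blue) lie among uncalled features (grey) with changes as large, and no feature with a mean over 100 FPKM was called; the dotted lines mark a change of 2-fold.

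Among the 9 called rises, AJAP04789 had the largest log2 change on the log2(FPKM + 0.5) scale. MSTRG.5606, given below, was above it with a pseudocount of 0.1 and with voom. The same held on leaving out control replicate 2, thermal replicate 1 or thermal replicate 2. AJAP04789 stood at 3.19, 0.508 and 1.56 FPKM in control replicates 1, 2 and 3, and at 57.1, 197 and 49.8 FPKM in the thermal replicates. The lowest thermal library was far above the highest control library, and replicate 2 was the highest of the thermal libraries and the lowest of the controls. The mean was 57.8-fold higher, and the log2 change 5.40 (SE 0.74, limma adjusted p = 0.0412). The fold was 30.5 without thermal replicate 2 and 98.1 without control replicate 1, with log2 changes of 4.77 and 5.85. The values rested on 20 to 136 reads per control library and 2110 to 9447 per thermal library.

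AJAP17693 went from 6.36, 7.63 and 13.6 FPKM in the controls to 73.5, 149 and 43.4 FPKM in the thermal libraries, a 9.61-fold higher mean (log2 change 3.09, SE 0.42, limma adjusted p = 0.0412). All 3 thermal libraries were above the controls, replicate 2 the most, and without it the mean was 6.35-fold higher. AJAP23000 was at 3.36, 1.96 and 2.36 FPKM in the controls and at 17.2, 17.6 and 14.5 FPKM at 26 °C, and rose 6.42-fold (log2 change 2.49, SE 0.34). Its thermal libraries were more alike than those of AJAP17693.

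The other 4 AJAP features that rose did so by smaller factors. AJAP10355, at 4614 bases the longest AJAP feature called, stood at 5.72, 8.504 and 9.53 FPKM in the controls and at 37.8, 34.3 and 33.1 FPKM in the thermal libraries, 4.43-fold higher (log2 change 2.11, SE 0.31). AJAP17398 stood at 19.8, 18.1 and 12.7 FPKM against 92.1, 79.6 and 47.1 FPKM, 4.32-fold higher (log2 change 2.05, SE 0.31). AJAP08131 stood at 8.31, 9.95 and 9.95 FPKM against 41.7, 40.0 and 26.2 FPKM, 3.83-fold higher (log2 change 1.86, SE 0.25). Thermal replicate 3 was the lowest of its group at all 3 of these features. AJAP16335 stood at 24.97, 10.8 and 18.3 FPKM against 57.2, 67.6 and 75.4 FPKM, 3.70-fold higher (log2 change 1.93, SE 0.28), and there thermal replicate 3 was the highest. Lengths here and below are those that the FPKM values imply.

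Both MSTRG features that rose had 0 reads in the 3 control libraries. MSTRG.134339, implied to be 414 bases long, was at 2.46, 2.05 and 1.76 FPKM in the thermal libraries, from 29, 21 and 16 reads (limma adjusted p = 0.0491). Against a floor of 3 reads over the control group it was at least 19.2-fold higher. MSTRG.5606, 2252 bases, was at 5.75, 19.4 and 33.0 FPKM in the thermal libraries. These levels differed widely within the group, and rested on 368, 1084 and 1631 reads, at least 898-fold above the same floor (limma adjusted p = 0.0412). Such floors, and the read interval given below, cover counting error alone, as the libraries had no molecular identifiers.

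Of the features that fell, the AJAP members were of moderate level. AJAP28331 stood at 54.8, 77.0 and 98.5 FPKM in the controls and at 20.3, 17.5 and 19.5 FPKM in the thermal libraries, a 4.02-fold lower mean (log2 change -1.94, SE 0.24, limma adjusted p = 0.0412). The controls spread over a wider range than the thermal libraries, and the nearest libraries of the groups were still well apart. AJAP06528 stood at 21.0, 25.01 and 29.9 FPKM against 6.01, 7.13 and 7.01 FPKM, 3.77-fold lower (log2 change -1.83, SE 0.26, limma adjusted p = 0.0491). AJAP25819 stood at 10.6, 7.58 and 18.0 FPKM against 0.335, 2.18 and 0.868 FPKM, 10.7-fold lower (log2 change -3.03, SE 0.45), on as few as 9 reads in thermal replicate 1. Without thermal replicate 2 its mean was 20.1-fold lower.

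The 5 MSTRG features that fell were at low level in the control and near or at 0 at 26 °C. MSTRG.98925 stood at 4.65, 3.07 and 2.75 FPKM in the controls, from 85, 52 and 53 reads, and had 0 reads in the thermal libraries, at least 72.5-fold lower with the floor set at 3 reads over the thermal group (limma adjusted p = 0.0412). MSTRG.94073 stood at 3.25, 2.99 and 4.78 FPKM in the controls on 20, 17 and 31 reads and also had 0 reads in the thermal libraries, at least 25.9-fold lower. At both features the control libraries were alike and the thermal libraries were empty.

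MSTRG.42046 stood at 4.88, 2.35 and 3.40 FPKM in the controls, 98 reads in all, against 2 reads in the 3 thermal libraries together. After scaling to depth the controls held 56.1 times as many reads, with an exact 95% counting interval of 15.1 to 469. MSTRG.92093, implied to be 5903 bases long, stood at 2.46, 6.19 and 1.87 FPKM in the controls, and only thermal replicate 2 had any reads, 8 of them (0.0547 FPKM). MSTRG.106531 stood at 6.67, 13.6 and 4.07 FPKM against 0.253, 0.306 and 0.0911 FPKM, a 37.5-fold lower mean (log2 change -3.45, SE 0.48, limma adjusted p = 0.0412). Reads were found in all 3 thermal libraries there, 18, 19 and 5 of them. Without control replicate 2 the mean was 24.8-fold lower.

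The features that fell stood at different levels in the groups that the heat comparison does not use. MSTRG.98925 had 0 reads in the 3 hypoxic libraries and 0, 0 and 0.0554 FPKM under both stresses, MSTRG.94073 had 0, 0 and 0.464 FPKM in the hypoxic libraries and 0 in those under both stresses, and MSTRG.92093 did not exceed 0.0886 FPKM in any of these 6 libraries. At MSTRG.42046 the highest of the 6 was 0.220 FPKM. These 4 features were thus found in the 3 control libraries and were near or at 0 in the 3 thermal libraries and in the 6 libraries of the other groups. The other 4 features that fell were still found there. MSTRG.106531 stood at 1.23, 0.802 and 2.24 FPKM in the hypoxic libraries and 1.158, 0.889 and 1.69 FPKM under both stresses, between its control and thermal levels. AJAP28331 stood at 44.1, 42.0 and 45.5 FPKM in the hypoxic libraries and 19.4, 24.4 and 29.7 FPKM under both stresses, so that both groups at 26 °C lay below both others. AJAP06528 was likewise lower in both groups at 26 °C, with 9.41, 10.7 and 12.1 FPKM in the hypoxic libraries and 4.88, 3.69 and 2.88 FPKM under both stresses. AJAP25819 was at 4.05, 4.16 and 5.26 FPKM in the hypoxic libraries and 4.02, 3.12 and 3.55 FPKM under both stresses, likewise between its control and thermal levels.

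**Figure D2:**
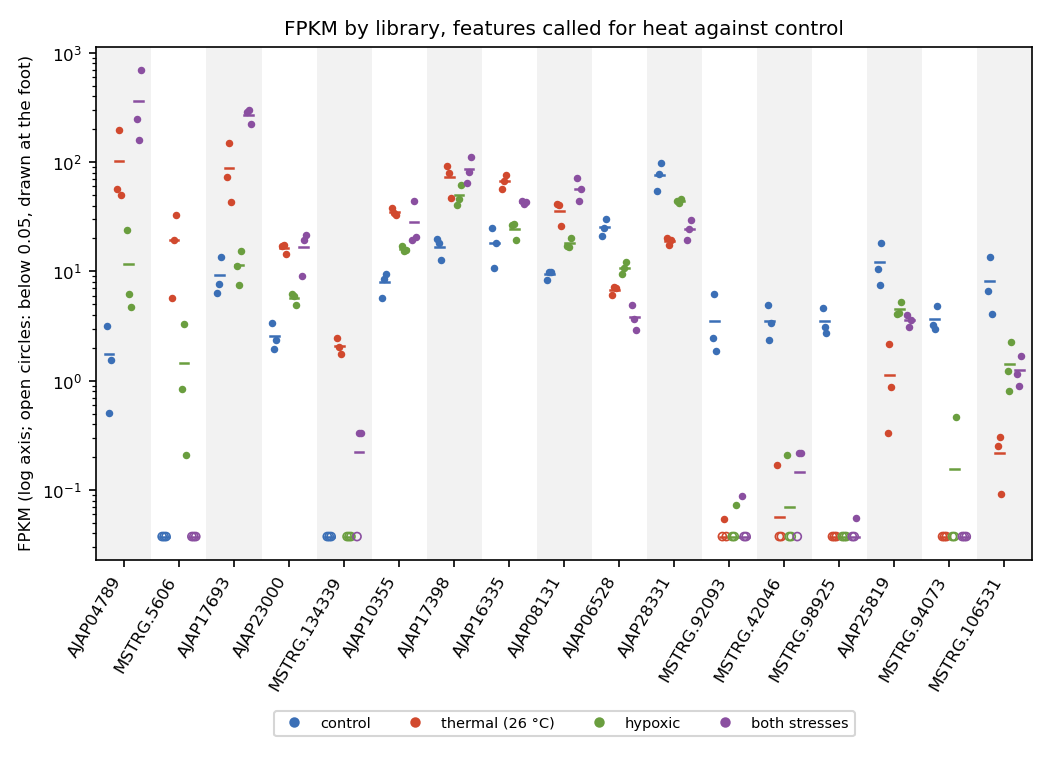
FPKM on a log axis for the 17 features called for heat against control, ordered by log2 change, with 1 point per library, 3 libraries per group, a bar at each group mean, and open circles at the foot for values under 0.05 FPKM. The thermal points of the 9 features on the left lie above the control points, those of the 8 on the right lie below, and 4 MSTRG features on the right have all hypoxic and combined points under 0.5 FPKM.

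Some features with larger changes did not pass the test. Features were first held to no overlap between groups, an unadjusted p under 0.01 and a group mean of at least 5 FPKM. Of the 40555 tested, 498 met this as higher in the thermal libraries and 372 as lower. The 10 largest rises and the 10 largest falls among them were examined, of which 2 rises were the called AJAP04789 and MSTRG.5606. The other 8 rises and all 10 falls had limma adjusted p from 0.0834 to 0.295.

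AJAP13651, on the higher side, stood at 0.479, 0.130 and 0.312 FPKM in the controls and at 20.3, 40.9 and 5.33 FPKM in the thermal libraries, with a 72.3-fold higher mean (log2 change 4.43, SE 0.73, limma adjusted p = 0.0834). All controls were under 1 FPKM, and thermal replicate 3 was the lowest of its group. Without that library the log2 change was 5.21 and the feature passed the threshold. AJAP28332 stood at 1.41, 6.10 and 0.297 FPKM against 33.8, 39.0 and 22.8 FPKM (log2 change 3.87, SE 1.07, limma adjusted p = 0.236). MSTRG.39811 stood at 4.63, 1.31 and 0 FPKM against 36.8, 31.2 and 13.04 FPKM (log2 change 3.92, SE 1.00, limma adjusted p = 0.212). At both, the controls were scattered over a wider ratio than the thermal libraries.

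MSTRG.111740 was the most abundant of these features, at 3.05, 155 and 85.9 FPKM in the controls and at 355, 1138 and 375 FPKM in the thermal libraries (log2 change 3.88, SE 1.08, limma adjusted p = 0.242). Control replicate 1 stood far below the other controls, and without it the log2 change was 2.202. AJAP19772 was at 14.0, 0 and 0 FPKM in the controls against 18.7, 23.0 and 106 FPKM, so that its nearest libraries almost met (log2 change 4.56, SE 1.33, limma adjusted p = 0.257). The remaining 3, AJAP17307, AJAP06593 and AJAP02877, had 0 reads in the controls and are given with the features absent from one group.

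Several of the uncalled falls leaned on a single control library. At 4 of the 10 falls the highest control library was at least 4-fold above the next, each time control replicate 3, against 1 of the 10 rises (AJAP19772, thermal replicate 3). AJAP03163 stood at 12.7, 39.3 and 986 FPKM in the controls and at 0, 3.71 and 1.37 FPKM in the thermal libraries (log2 change -5.67, SE 1.25, limma adjusted p = 0.161). Its log2 change without control replicate 3 was -3.86. AJAP18483 stood at 2.05, 8.44 and 85.3 FPKM against 0, 0.494 and 0.267 FPKM, with a log2 change of -4.11 (SE 0.93, limma adjusted p = 0.167) that came to -2.72 without control replicate 3. AJAP25354 stood at 1.58, 4.81 and 59.3 FPKM against 0.0222, 0.230 and 0.0577 FPKM, with a log2 change of -3.87 (SE 0.89, limma adjusted p = 0.167) that came to -2.48 without it. The fourth of these, AJAP05169, stood at 1.73, 8.70 and 58.9 FPKM against 0 in the thermal libraries. At all 4 the difference was smaller when that library was set aside, as it must be without the highest control. The lack of overlap was a condition for choosing them, so it adds nothing here.

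Over all features the 3 control libraries stood apart from each other about equally often, counting both directions. Among the 26717 features with at least 5 FPKM in 1 of the 6 libraries, control replicate 3 was 4-fold or more above both other controls at 315 and below both at 467. The counts were 444 above and 341 below for control replicate 1, and 421 and 413 for control replicate 2. Among the 372 features from which the falls were taken control replicate 3 was above both others at 15, against 2 and 3 for control replicates 1 and 2. The part of this library in these falls was not tested beyond the values without it.

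The other falls leaned on other libraries or on none. MSTRG.132656 stood at 40.7, 27.01 and 36.0 FPKM in the controls and at 0.0893, 0.307 and 23.9 FPKM in the thermal libraries, so that thermal replicate 3 stood close to the controls (log2 change -3.93, SE 1.08, limma adjusted p = 0.233). Without thermal replicate 3 the log2 change was -5.65 and the feature passed the threshold. AJAP25418 stood at 16.2, 21.8 and 7.59 FPKM against 0.314, 0.647 and 0 FPKM (log2 change -4.22, SE 0.76, limma adjusted p = 0.095), and no single library set it apart. MSTRG.70473 stood at 10.5, 15.3 and 6.64 FPKM against 0, 0 and 0.765 FPKM (log2 change -3.98, SE 0.94, limma adjusted p = 0.177). MSTRG.127693 stood at 47.7, 17.7 and 1.17 FPKM against 0, 0.382 and 0 FPKM (log2 change -4.23, SE 1.09, limma adjusted p = 0.212), and control replicate 3 was there the lowest control. MSTRG.59468 and MSTRG.59472 had 0 reads in the thermal libraries.

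Of the 17 features with an absolute log2 change of at least 4, 3 were not taken by these rules and were singled out after their values were seen. AJAP05789 stood at 0, 7.63 and 0.212 FPKM in the controls against 152, 290 and 5.63 FPKM, AJAP22103 at 1.55, 0.896 and 0.393 FPKM against 81.5, 194 and 1.56 FPKM, and AJAP18992 at 129, 1.71 and 12.3 FPKM against 0.0875, 0 and 0 FPKM. In the first of these the groups overlapped, and at both rises thermal replicate 3 stood at or near the control level. Their limma adjusted p values were 0.416, 0.335 and 0.314.

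Features read in every library of one group and in none of the other were mostly rare. Of the 59494 features in the table, 214 had 0 reads in the 3 controls and reads in the 3 thermal libraries, 168 of them MSTRG. The other way round there were 291, 178 of them MSTRG. MSTRG features thus made up 78.5% and 61.2% of these, where they were 52.0% of all features in the table. Only 6 and 7 of them reached a mean of 5 FPKM in the group that had them, and 104 and 186 had fewer than 3 reads in at least 1 library of that group. A feature of so few reads can be missed at this depth, so these counts do not show absence.

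AJAP17307 stood at 23.0, 9.70 and 10.1 FPKM in the thermal libraries, at least 514-fold above a floor of 3 reads over the controls (limma adjusted p = 0.295). It also had 0 reads in hypoxic replicates 1 and 2 and 39.8 FPKM in hypoxic replicate 3, so presence at such a level varied within a group. AJAP06593 stood at 18.4, 6.49 and 8.81 FPKM, at least 557-fold above the floor (limma adjusted p = 0.0834), AJAP02877 at 18.5, 3.86 and 8.72 FPKM, at least 114-fold (limma adjusted p = 0.259), and AJAP02810 at 13.7, 0.968 and 2.73 FPKM, at least 115-fold (limma adjusted p = 0.262). At these 4 features thermal replicate 1 was the highest of the thermal libraries.

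In the other direction, AJAP05169 was at least 364-fold lower than the controls against a floor of 3 reads over the thermal group (limma adjusted p = 0.106). MSTRG.59468 stood at 22.9, 4.29 and 6.68 FPKM in the controls, at least 159.8-fold higher than that floor (limma adjusted p = 0.0895). MSTRG.59472 stood at 13.9, 2.66 and 12.4 FPKM, at least 77.4-fold (limma adjusted p = 0.102). AJAP09921 stood at 1.63, 3.21 and 39.2 FPKM, at least 236-fold (limma adjusted p = 0.161), and MSTRG.90925 at 14.3, 0.351 and 0.719 FPKM, at least 271-fold. In these last 2 a single control library held most of the reads, and MSTRG.90925 was outside the minimum and was not tested.

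Over all 40555 features the estimated change with heat was small at most of them. On the deposited FPKM scale rises were the more frequent, with 21970 features above a log2 change of 0 and 18585 below. The median width of the 95% interval was 2.11 log2 units, so a small change could not be stated for most. The median log2 change was 0.06, the median absolute log2 change 0.41, and the range from the 5th to the 95th percentile was -1.11 to 1.21. There were 1529 features at least 2-fold higher in the thermal libraries with no overlap between the groups (3.77%) and 1292 at least 2-fold lower (3.19%). At least 4-fold differences without overlap numbered 268 and 192, and at least 8-fold 43 and 42. MSTRG features made up 893 of the 1529 and 637 of the 1292, where they were 19307 of all tested. Median-of-ratios scaling, which brought the median log2 change from 0.06 to 0.002, gave 1300 higher and 1469 lower, so which direction was the more frequent depended on the scaling. A further 2930 of the 5751 features with a change of 2-fold or more had overlapping groups.

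Intervals of the change were narrower at higher levels, but those under 1 FPKM were no wider than those from 1 to 5 FPKM. Under a mean of 1 FPKM over the 6 libraries the median was 12.5 reads per library, and the half-width of the median 95% interval was 2.31-fold. From 1 to 5 FPKM the median was 51.2 reads and the half-width 2.32-fold. Whether level or depth sets the width was not tested. Above 100 FPKM the median was 3764 reads and the half-width 1.53-fold. The share with at least 2-fold non-overlapping libraries was 7.74% under 1 FPKM, 8.10% from 1 to 5, 6.29% from 5 to 20, 4.08% from 20 to 100 and 5.68% above 100. The share with an unadjusted p under 0.05 ran the other way, from 7.51% under 1 FPKM to 20.1% above 100 FPKM. The 17 called features fell at 6 from 1 to 5 FPKM, 4 from 5 to 20 and 7 from 20 to 100.

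**Figure D3:**
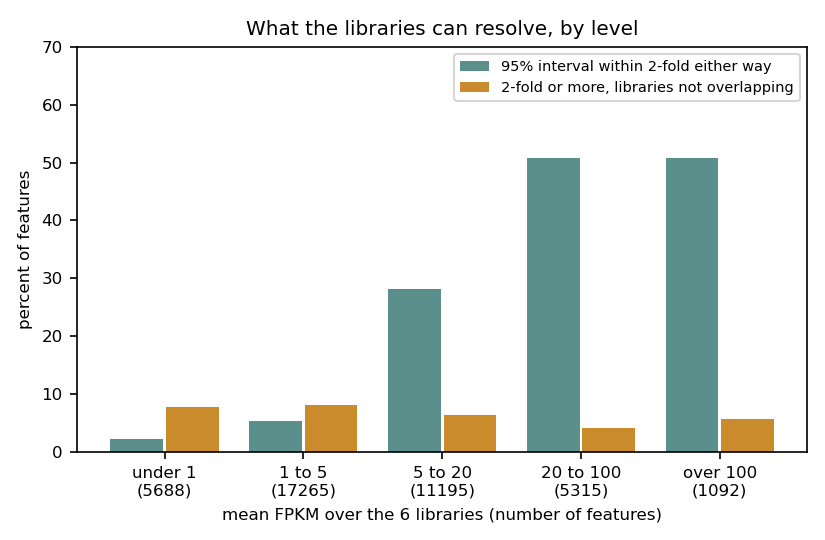
Percent of tested features (linear axis) in 5 classes of mean FPKM over the 6 libraries whose 95% interval lay within 2-fold (green bars) or whose libraries differed by at least 2-fold without overlap (ochre bars), with the number of features under each class. The share bounded within 2-fold climbs from 2.16% under 1 FPKM to 50.8% in both classes above 20 FPKM.

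A change of less than 2-fold could be stated for a minority of features. At 7461 of the 40555 the 95% interval of the log2 change lay wholly between -1 and 1, rising from 2.16% under 1 FPKM to 50.8% above 100 FPKM, and at 1317 of the 2478 with a mean of at least 50 FPKM. The 5 with the narrowest intervals at that level are given here, and that narrowness was the rule that chose them. AJAP17257 stood at 175, 174 and 173 FPKM in the controls and at 149, 142 and 171 FPKM in the thermal libraries (log2 change -0.18, interval -0.53 to 0.17). AJAP30334 stood at 64.3, 58.1 and 65.0 FPKM against 69.7, 64.7 and 69.8 FPKM (log2 change 0.12, interval -0.23 to 0.47). AJAP06978 stood at 112, 115 and 108 FPKM against 125, 112 and 116 FPKM (log2 change 0.08, interval -0.28 to 0.43). The differences between groups were small beside the levels in all 3.

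In 3 of the 5 features the groups did not overlap although the change was bounded, AJAP17257 among them. For comparison, the groups did not overlap at 3604 features that were higher and 2778 that were lower, of the 40555 tested. The 5 were chosen for narrow intervals and are too few to set against that background, so no excess is read from them. AJAP12756 stood at 87.7, 84.9 and 94.6 FPKM in the controls and at 78.1, 83.0 and 77.7 FPKM in the thermal libraries (log2 change -0.16, interval -0.51 to 0.19). AJAP20732 stood at 54.0, 60.4 and 59.98 FPKM against 74.3, 77.8 and 66.7 FPKM (log2 change 0.32, interval -0.03 to 0.68).

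None of the 10 most abundant features passed the test, and in none were the groups apart. MSTRG.76821, the highest, stood at 29811, 25343 and 21907 FPKM in the controls and at 24093, 21635 and 35991 FPKM in the thermal libraries (log2 change 0.06, interval -0.72 to 0.84). AJAP00345 was next, with a log2 change of -0.12 (interval -0.96 to 0.72). AJAP08879 stood at 5125, 4061 and 5583 FPKM against 4914, 4250 and 6114 FPKM, with the narrowest interval of the 10 (log2 change 0.05, interval -0.52 to 0.62). The largest of the 10 changes was at AJAP17017, at 6296, 4231 and 6331 FPKM against 2869, 2804 and 4765 FPKM (log2 change -0.71, SE 0.33, limma adjusted p = 0.453).

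A group of 3 abundant features moved together between libraries of one group rather than between the groups. AJAP12149 stood at 1054, 9905 and 15787 FPKM in the controls and at 9543, 5724 and 3338 FPKM in the thermal libraries. AJAP07929 stood at 714, 7501 and 8856 FPKM against 6376, 5631 and 1833 FPKM, and AJAP21412 at 602, 7157 and 9522 FPKM against 4581, 3764 and 2018 FPKM. Control replicate 1 was the lowest library in all 3, thermal replicate 3 was the lowest of the thermal libraries, and their standard errors of the log2 change were 0.98, 0.97 and 0.97. Changes of up to about 2 log2 units in either direction therefore lie within the interval at these features, -2.08 to 2.18 at AJAP12149. Without control replicate 1 the log2 changes of AJAP12149 and AJAP07929 turned from 0.05 and 0.16 to -1.14 and -1.01, and without control replicate 3 that of AJAP21412 turned from -0.08 to 0.65.

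**Figure D4:**
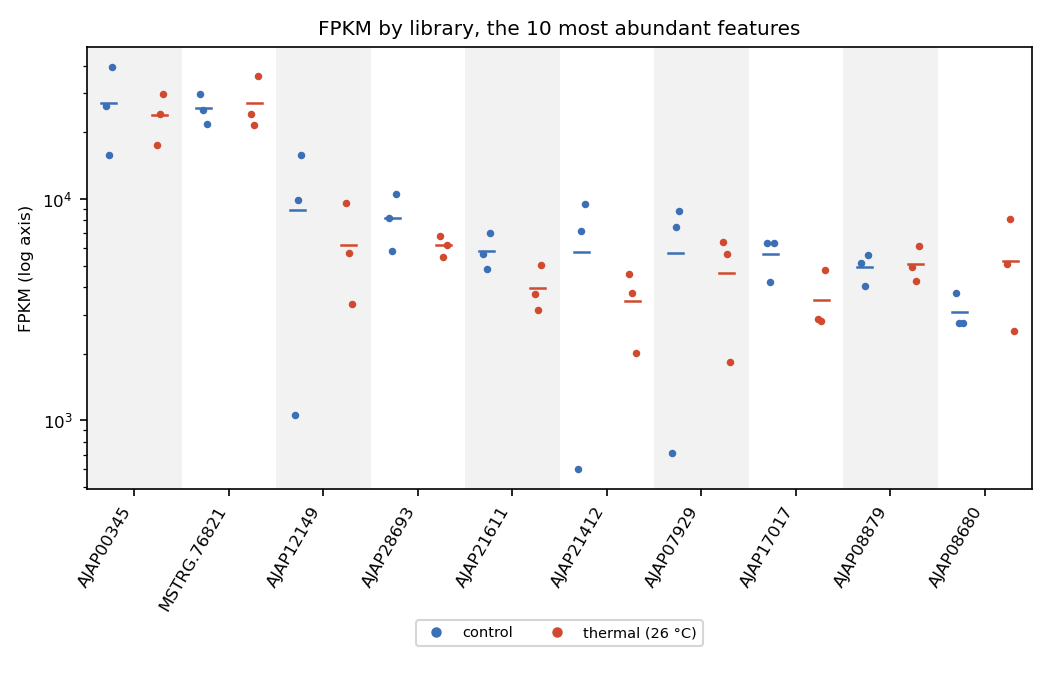
FPKM on a log axis for the 10 features with the highest mean FPKM over the 6 libraries, with 1 point per library and a bar at each group mean. Control and thermal points overlap at all 10, and at AJAP12149, AJAP07929 and AJAP21412 control replicate 1 lies far below the other 2 controls.

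Heat under low oxygen gives a comparison that shares no library with heat alone, the group under both stresses against the hypoxic group. Both comparisons take their standard errors from the same fit over 12 libraries, so their p-values are not independent. It called 7 of the 40555 features at a limma adjusted p of 0.05 (0.0173%), 4 higher and 3 lower, and 4476 had an unadjusted p under 0.05 (11.0%). AJAP17693 was the 1 feature called in both comparisons. It stood at 11.2, 7.56 and 15.3 FPKM in the hypoxic libraries and at 285, 300 and 223 FPKM under both stresses (log2 change 4.55, limma adjusted p = 0.00541), so that its hypoxic libraries were near its controls and its libraries under both stresses were above its thermal ones.

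The features that rose with heat alone mostly stood higher under low oxygen too. Of the 9 rises, 8 had a positive log2 change with heat in low oxygen, the 7 AJAP features among them at an unadjusted p under 0.05, and 1 had a negative one at that p. AJAP04789 stood at 24.1, 6.23 and 4.76 FPKM in the hypoxic libraries and at 248, 158 and 690 FPKM under both stresses (log2 change 4.98, limma adjusted p = 0.0545). AJAP08131 stood at 17.1, 16.8 and 20.4 FPKM against 70.9, 43.7 and 56.8 FPKM (log2 change 1.61, limma adjusted p = 0.0582). AJAP10355, AJAP17398 and AJAP16335 had log2 changes of 0.69, 0.78 and 0.81 there, against 2.11, 2.05 and 1.93 with heat alone. AJAP23000 had 1.38 against 2.49.

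The features that fell with heat alone were divided. Of the 8, 5 had a negative log2 change in low oxygen, 2 of them at an unadjusted p under 0.05, AJAP28331 with -0.85 and AJAP06528 with -1.40. The 5 MSTRG features that fell had log2 changes between -0.32 and 0.18, with hypoxic levels at or near 0 in 4 of them, where a further fall cannot be seen. Over all 17 called features 13 had the same direction in both comparisons (76.5%) and 9 also had an unadjusted p under 0.05. Over all features tested 54.5% had the same direction and 7.32% also had that p. The 17 were called partly for a small standard error, which both comparisons share. Their count under that p is therefore no independent sign. The median log2 change with heat in low oxygen, taken in the direction of heat alone, was 0.69 over the 17 and 0.06 over all features.

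The difference between the changes at the 2 oxygen levels was tested as an interaction, and 0 features passed (smallest limma adjusted p 0.348, 3220 at an unadjusted p under 0.05). Of the 17 called features, 14 had an unadjusted p under 0.05 for it. That count contains the change with heat alone on which they were called, and is no independent sign that they respond differently in low oxygen.

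**Figure D5:**
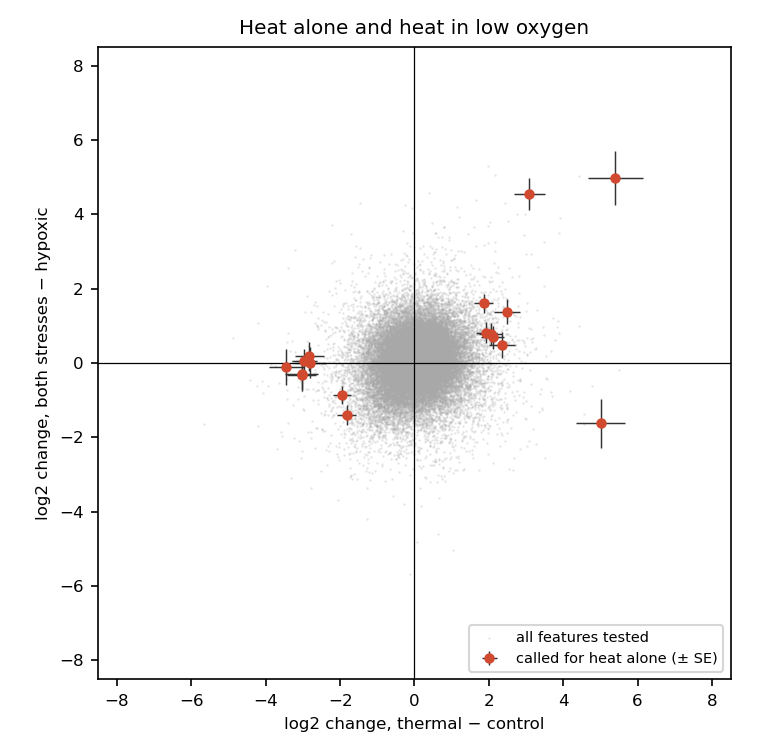
Log2 change with heat in low oxygen (combined minus hypoxic, vertical axis) against log2 change with heat alone (thermal minus control, horizontal axis), both on the log2(FPKM + 0.5) scale, 1 point per feature tested and the 17 features called for heat alone in red with bars of 1 SE. AJAP17693 and AJAP04789 lie far up on the right, while MSTRG.5606 lies on the right below 0 and the 5 MSTRG falls lie on the left near 0.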

How the data were processed

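Ribosomal RNA-depleted RNA of the respiratory tree was sequenced in 12 libraries. The FPKM values of 1 table of 59494 features were deposited by the authors, and 12 of its columns matched the sample titles, with 0 others. The submitters' processing notes name Bowtie2 2.2.3, TopHat2 2.0.12, Cufflinks and DESeq 1.16, without saying what each did. Neither the genome build nor the counting tool is given in the sources.

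Reads per feature, library totals and feature lengths were recovered from the deposited FPKM values, which are whole multiples of 1 read. All 59494 features gave whole reads in each library at a tolerance of 0.001 reads, and 0% of 3000 did with wrong totals. Library totals were 20387909 to 28428042 in the 6 libraries compared. For the 6535 features read in fewer than 4 libraries the length is less certain.

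The features (minimum 0.5 FPKM in 3 of the 6 libraries) were tested with limma 3.58.1 in R 4.3.3 (trended prior, 2-sided, Benjamini-Hochberg over all 40555) on log2(FPKM + 0.5), a scale that understates changes of low features. The fit held 1 mean for each of the 4 groups over 12 libraries (8 residual degrees of freedom). Heat in low oxygen and the interaction came from this fit. Shares were compared by exact permutation, and the script was tested on simulated data. Python 3.11.15, pandas 2.3.3, numpy 2.4.6, scipy 1.17.1 and matplotlib 3.10.9 were used.

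Named features were all that passed (17), the 10 largest rises and falls among non-overlapping features with an unadjusted p under 0.01 and a mean of at least 5 FPKM in a group, the 10 most abundant, up to 5 per direction at 0 in one group with a mean of at least 5 FPKM in the other, and the 5 with the narrowest interval among those within 2-fold and at least 50 FPKM. They came to 53. The comparison and these rules were chosen with earlier results of these data known. Lists of chaperone, oxidative stress, proteasome and cell type genes could not be applied, since no identifier carries a name. Alternatives were other pseudocounts (0.1 and 1), no filter, a filter of 2 FPKM, median-of-ratios scaling, robust variance, a replicate block, a fit on 6 libraries, voom on recovered reads, and each library left out.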

Additional observations from a re-analysis of the deposited data

Results flagged for a closer look

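MSTRG.5606 moved in opposite directions with heat at the 2 oxygen levels. It had 0 reads in the 3 controls and stood at 5.75, 19.4 and 33.0 FPKM in the thermal libraries. In the hypoxic libraries it stood at 0.841, 3.29 and 0.211 FPKM, from 43, 177 and 11 reads, and none was read in the 3 libraries under both stresses. All 3 thermal libraries were above the controls and all 3 libraries under both stresses were below the hypoxic ones. The difference between the log2 changes was -6.63 (SE 0.94, unadjusted p = 1.21e-05, limma adjusted p = 0.348 over all features), which fails the correction. With 2 of the 4 groups at 0 reads, that size depends on the pseudocount of 0.5. Opposite signs were not particular to MSTRG.5606 among the named features. MSTRG.70473 had log2 changes of -3.98 with heat alone and 2.07 in low oxygen, AJAP25418 -4.22 and 1.09, and AJAP19772 4.56 and -1.64. Their interactions failed the correction too (limma adjusted p = 0.448, 0.42 and 0.509).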

How the results depend on the processing

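The number of features called for heat against control was 17, and it came to 0 with a pseudocount of 0.1, with a filter of 2 FPKM, with voom, with the fit on 6 libraries and with a replicate block (4300 at an unadjusted p under 0.05), to 1 with median-of-ratios scaling and to 10 with robust variance. A pseudocount of 1 called 15 and no filter called 17, of which 15 and 12 were among the 17. Leaving out 1 library gave 0 to 9 calls, of which at most 4 were among the 17. Same-numbered control and thermal libraries did not deviate together over the features as a whole (r = -0.011, 0.002 and -0.065). This cannot exclude a pairing that touches few features, and the labels do not say what the numbers stand for.

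The number of features at least 2-fold higher without overlap was 1529 and came to 923 with a filter of 2 FPKM, and the number lower was 1292 and came to 783. With 1 library left out they were 2225 to 2590 higher and 1877 to 2242 lower, since 2 libraries overlap less often than 3. The number bounded within 2-fold was 7461, 12251 without a filter and 11544 with a pseudocount of 1, and 5114 to 7327 with 1 library left out. Of the 52 named features that were tested, 6 took another sign under some alternative, all of them among the 10 most abundant and none called. The called features, the largest rises and falls, and those at 0 in one group had no overlap between groups. Few alternatives could change a sign there. Without control replicate 3 the log2 change of AJAP00345 went from -0.12 to 0.19, and without thermal replicate 3 that of MSTRG.76821 went from 0.06 to -0.16. Features under 1 FPKM rested on few reads, with a median of 12.5 reads per library.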
